A study of Mus musculus with 18 samples.

Results

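The vehicle-treated lumbar dorsal root ganglia of this series were described on their own, as a baseline of gene abundance and of its spread between animals. They comprised 9 of the 18 libraries, SHAM1 to SHAM9, chosen by their group label. Each came from a male C57BL/KaLwRijHsd mouse of 5 to 7 weeks that received vehicle into the femur, and from whole ganglia of lumbar levels L2, L3 and L4 on the operated side, snap frozen on day 24 after surgery. The other 9 mice, inoculated with 5TGM1-GFP myeloma cells, were not used. The C57BL/KaLwRijHsd strain, the host of that myeloma line, is known to lack the gene Samsn1, which encodes an adaptor protein of blood cells. Samsn1 (ENSMUSG00000022876) held 1 read over all 9 libraries, in SHAM7, and 0 in the other 8. Total RNA was sequenced, and abundance is given as TPM, a share of a library's transcripts that corrects for transcript length and so allows genes to be set side by side. TPM of all transcripts of a gene were summed.

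A dorsal root ganglion holds the cell bodies of sensory neurons, each wrapped by satellite glial cells, together with the axons of those neurons and the Schwann cells along them. Large neurons with myelinated axons carry touch and body position, and small neurons with unmyelinated or thinly myelinated axons carry pain, itch, temperature and gentle touch. Blood vessels, macrophages and a collagen-rich capsule make up the rest, and the capsule continues into the meninges on one side and the spinal nerve, which runs into muscle, on the other. In whole ganglia, fewer cells of a type and less RNA per cell cannot be told apart, so every level below is a level of the tissue as taken.

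The libraries held 19014161 to 21527365 estimated reads assigned to genes, at which 3 reads correspond to 0.139 to 0.158 CPM (counts scaled to library size). Genes at a TPM of at least 1 in all 9 libraries numbered 13560, of which 12737 were protein-coding, and 20225 of 48529 genes were listed at 0 throughout. Mean TPM reached 1 for 15313 genes, 10 for 9247, 100 for 1692 and 1000 for 108. Departures of over 2-fold from a gene's median over libraries were most frequent in SHAM6 and SHAM8: of the 9247 genes, SHAM6 had 134 above and 24 below, and SHAM8 had 94 above and 120 below. The median Pearson correlation of log2(TPM + 1) with the other libraries was 0.942 for SHAM8, 0.962 for SHAM6, 0.967 for SHAM7 and 0.973 to 0.977 for the rest. SHAM8, SHAM7 and SHAM2 carried skeletal muscle transcripts, SHAM2 carried Gfap, SHAM6 was high in genes of connective tissue, meninges, blood and myelin, and SHAM5 and SHAM9 carried immunoglobulin chains. The values stand with each gene group below. The labels name no dissection day or batch for these libraries.

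Transcripts of mitochondrial origin led the ranking, and 4 of the 9 genes with the highest mean TPM were annotated as nuclear pseudogenes that repeat a mitochondrial gene. Mitochondrial DNA encodes 13 subunits of the respiratory chain and ATP synthase, and parts of it have been copied into nuclear chromosomes. Sequence is shown here because it bears on how these levels can be read. Bases 301 to 360 of mt-Atp6, a subunit of ATP synthase, and the matching stretch of its copy Gm10925, from GENCODE M21, were identical:
mt-Atp6: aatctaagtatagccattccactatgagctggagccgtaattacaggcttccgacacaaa
Gm10925: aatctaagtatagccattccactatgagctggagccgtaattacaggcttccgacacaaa
The same held for mt-Co2, a subunit of cytochrome oxidase, and Gm28661:
mt-Co2: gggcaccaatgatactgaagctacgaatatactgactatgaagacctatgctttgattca
Gm28661: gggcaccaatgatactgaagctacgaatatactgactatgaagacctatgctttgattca
The first 60 bases of mt-Nd3, a subunit of complex I, and of Gm28438 differed at 1 base, T3C counted from the first base of mt-Nd3 with the mitochondrial base first, given in capitals:
mt-Nd3: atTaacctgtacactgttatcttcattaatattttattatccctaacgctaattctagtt
Gm28438: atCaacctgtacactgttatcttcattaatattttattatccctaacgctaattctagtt
Every stretch of 31 bases of Gm10925 (678 bases), Gm28661 and Gm28437 was present in its mitochondrial gene, and 99.0% of those of Gm28438 were. Reads from the shared stretches cannot be assigned by their sequence, so the split between gene and copy is an estimate.

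Gm10925 was listed at 22804 TPM ± 3037 (SD, n = 9), 3.50 times the 6511 TPM of mt-Atp6. Gm28661 was listed at 20973 TPM against 1745 for mt-Co2, Gm28437 at 13768 against 2267 for mt-Co3, and Gm28438 at 7576 against 557 for mt-Nd3. The mitochondrial genes of these pairs were less steady than the sums. The coefficient of variation between libraries (CV, the SD over the mean) was 35.7% for mt-Co2 and 13.1% for the sum of mt-Co2 and its copy, and 16.3% for mt-Atp6 and 11.8% for its sum. The copies alone were closer to the sums, with 14.0% for Gm28661 and 13.3% for Gm10925. For Gm28437 the CV was 12.7% against 13.1% for its sum, and for Gm28438 17.7% against 17.8%. Summed with the copies, mt-Atp6 reached 29315 TPM and mt-Co2 22718 TPM, above mt-Co1, the catalytic subunit of cytochrome oxidase, at 18347 TPM. Mitochondrial-encoded genes held 9.6% ± 1.33 of all TPM (SD, n = 9), from 8.08% in SHAM5 to 12.5% in SHAM8, and with their nuclear copies 16.2% ± 2.11. That share was highest in SHAM8, the library with the most muscle transcript, and the part of muscle in it was not tested.

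The other 21 of the 25 most abundant nuclear genes were mostly genes of neurons, of myelin and of metabolism. Apoe (ENSMUSG00000002985), a lipid carrier made by satellite glia and macrophages, ranked first among them at 5301 TPM ± 520 (SD, n = 9), from 4754 in SHAM1 to 6063 in SHAM3. Tuba1a, an alpha tubulin of neurons, stood at 4712 TPM with a CV of 5.28%, and Sncg, a synuclein of peripheral neurons, at 4160 TPM with 6.63%. Uchl1 (ENSMUSG00000029223), a deubiquitinase so abundant in neurons that it is used as a marker under the name PGP9.5, stood at 4060 TPM ± 390 (SD, n = 9), from 3437 in SHAM8 to 4568 in SHAM9. These 4 genes had CVs under 10%, against 37.8% for the myelin gene Pmp22 in the same ranking. Nefl, the light neurofilament, stood at 2818 TPM, Tubb3, the neuronal beta tubulin, at 2327 TPM, and the ferritin heavy chain Fth1 at 3707 TPM. The glycolytic enzyme Aldoa stood at 3213 TPM with 6341 in SHAM8 and 2487 to 3526 in the others, and Gapdh at 4409 TPM with 5922 in SHAM8 and 3711 in SHAM6. Atp5b, a subunit of ATP synthase, was the last inside the 25 at 2239 TPM, and Calca at 2230 TPM was the first outside.

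**Figure D1:**
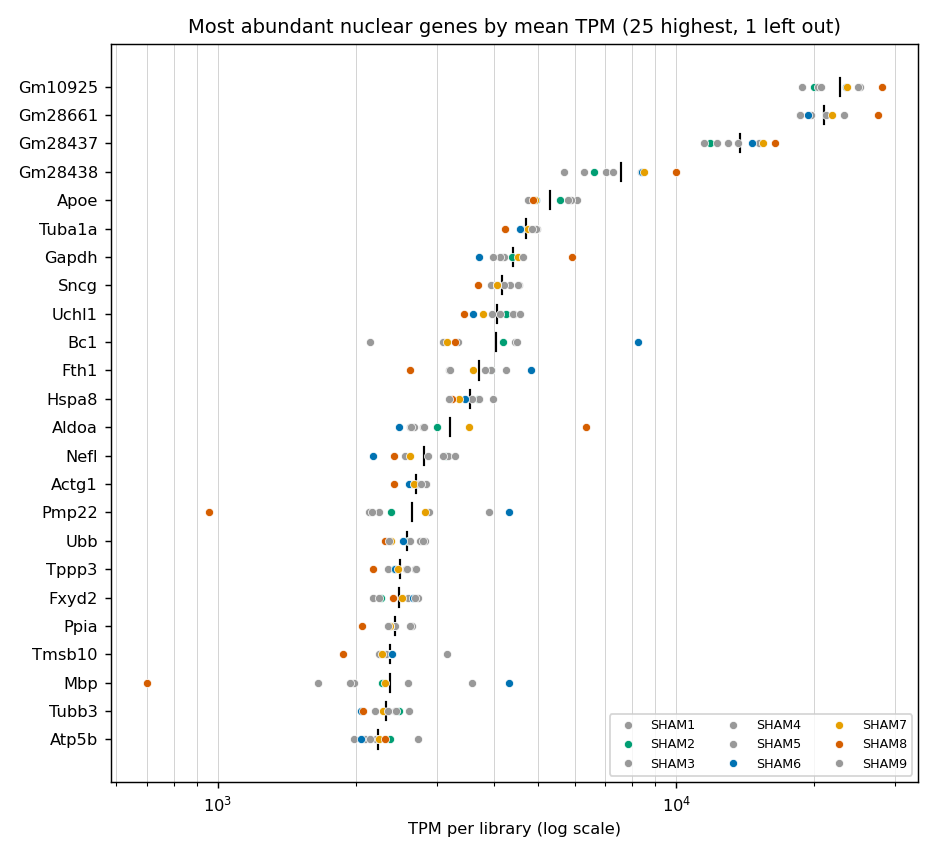
The 25 nuclear genes with the highest mean TPM, 1 left out, one row each; the x axis is TPM per library on a log scale, points are the 9 vehicle libraries and the bar is the mean. Most neuronal genes form tight clusters, while Pmp22 and Mbp spread widely with SHAM8 (red-orange) lowest and SHAM6 (blue) highest, and Aldoa and Bc1 each have 1 library far to the right.

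The non-coding RNA Bc1 (ENSMUSG00000115783) had the highest TPM of the genes that encode no protein and are not pseudogenes. Bc1 is a short transcript of RNA polymerase III, found mainly in neurons, where it represses translation. Its sequence of 168 bases, from GENCODE M21, is shown with its 2 runs of at least 8 A, of 23 and 9 bases, in capitals, since a run of A lets an RNA without a poly(A) tail be caught by oligo(dT):
Bc1: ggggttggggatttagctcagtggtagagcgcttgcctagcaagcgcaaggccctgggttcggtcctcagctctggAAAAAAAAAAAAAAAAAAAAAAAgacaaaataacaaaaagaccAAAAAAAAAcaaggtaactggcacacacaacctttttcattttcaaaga
How RNA was selected for these libraries is not given in the sources used here. Bc1 stood at 4455, 4179, 3337, 4502, 3100, 8265, 3167, 3297 and 2141 TPM in SHAM1 to SHAM9, a mean of 4049 ± 1752 (SD, n = 9). SHAM6 was highest and SHAM9 lowest. By estimated reads Bc1 did not lead, with a mean of 920 against 13570 for Meg3 and 6000 for Malat1. Its TPM thus rests largely on the correction for its short length. Meg3, an imprinted long non-coding RNA, followed at 444 TPM with a CV of 28.6%, and Malat1, retained in nuclei, stood at 203 TPM with 35.4%. Both were lowest in SHAM6, at 235 and 80.8 TPM, and highest in SHAM3, at 654 and 343 TPM. Gas5, host of small nucleolar RNAs, stood at 168 TPM with a CV of 6.71%.

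A few genes held much of the transcript pool. The 10 genes with the highest mean TPM held 13.6% ± 1.68 of all TPM (SD, n = 9), the first 100 held 31.5% ± 1.51 and the first 1000 held 62.1% ± 1.43. Protein-coding genes held 91.0%, and 81 genes of cytosolic ribosomal proteins held 3.52% ± 0.244. The nuclear copies of mitochondrial protein genes, annotated as pseudogenes, held a further 6.61%. Their split from the protein-coding mitochondrial genes is an estimate, so the protein-coding share depends on it.

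Marker genes of neurons and glia lay far above those of vessels and immune cells. The median over members of mean TPM was 87.1 for 67 neuron genes, 69.9 for 41 glia genes, 39.6 for 16 connective tissue genes, 12 for 30 vessel genes and 2.53 for 81 immune genes. All members of the first 4 groups reached a mean TPM of 1, and 56 of 81 immune genes did. The spread between libraries did not follow this order, and connective tissue and immune genes varied most: the median CV was 13.6% for neuron genes, 20.2% for glia genes, 30.4% for vessel genes, 54.3% for connective tissue genes and 50.4% for immune genes, beside 13.4% over all genes at a mean TPM of at least 1. These medians depend on which markers the lists hold, and genes at lower TPM have more counting error. Neuron genes together held 2.66% ± 0.200 of all TPM (SD, n = 9), from 2.24% in SHAM6 to 2.87% in SHAM5, and glia genes 1.91% ± 0.460, from 1.10% in SHAM8 to 2.66% in SHAM6.

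**Figure D2:**
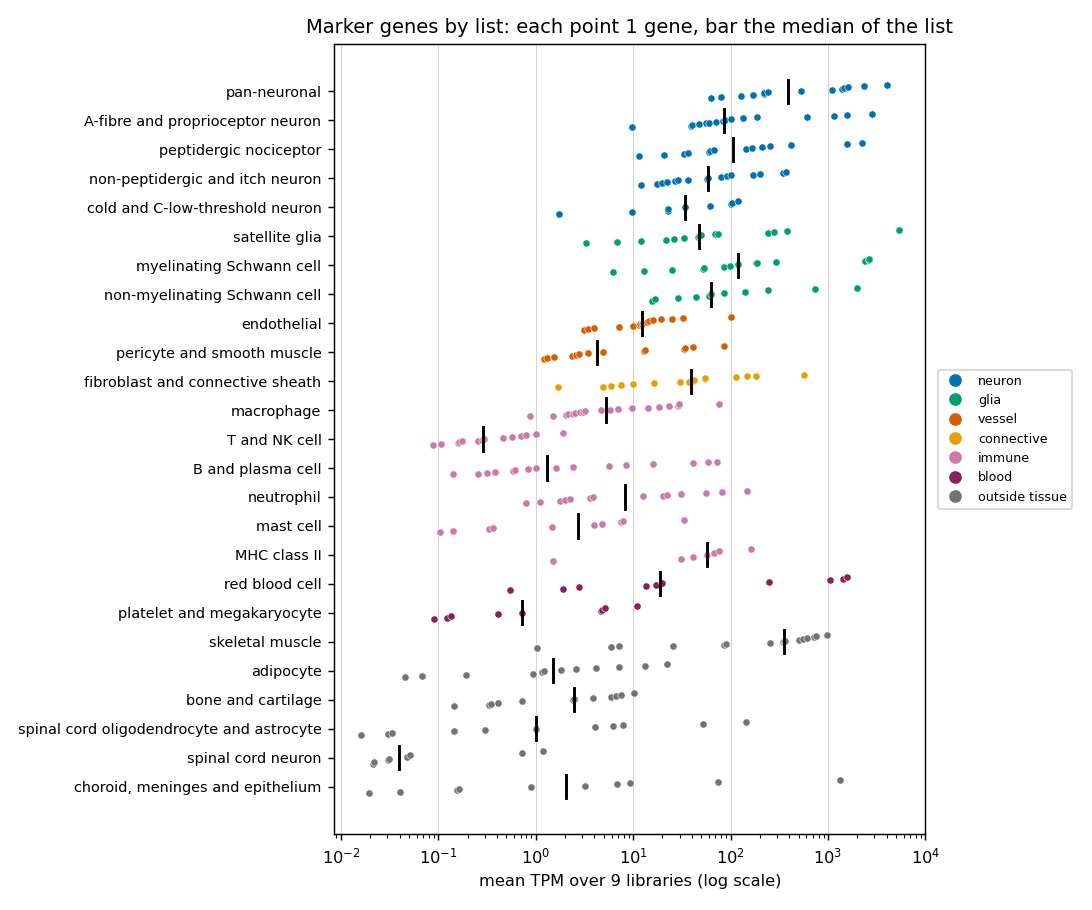
Mean TPM over the 9 vehicle libraries of each marker gene (1 point per gene, x axis on a log scale) in 25 lists of cell types, coloured by class, with the median of each list as a bar. The medians run from 387 TPM for pan-neuronal genes down to 0.29 TPM for T and NK cells and 0.04 TPM for spinal cord neurons; that of skeletal muscle, 350 TPM, was 99.3 TPM without SHAM8.

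Genes shared by all sensory neurons had the highest median TPM of the cell-type lists. All 14 pan-neuronal genes reached 10 TPM and 12 reached 100, with a median CV of 9.64%. After Uchl1 and Tubb3 the highest were Prph, a neuronal intermediate filament, at 1593 TPM with a range of 1386 to 1827, and Stmn2, a microtubule regulator. Snap25, which drives vesicle fusion, ranged from 1034 TPM in SHAM6 to 1609 in SHAM2. Pou4f1 and Isl1, the transcription factors that specify sensory neurons, stood at 171 and 62.9 TPM, and Avil, an actin-binding protein that marks them, at 530 TPM. Map1b, a microtubule-associated protein, had the highest CV of the list at 22.1%. The summed TPM of the list was lowest in SHAM6 at 11456 and highest at 15002. The median CV was 6.82% without SHAM6 and SHAM8 and 10.5% without SHAM2, SHAM7 and SHAM8, choices made after seeing the data.

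Markers of large myelinated neurons were abundant, and 1 of them, Pvalb, was split between libraries. The neurofilaments Nefl, Nefm and Nefh stood at 2818, 1568 and 1142 TPM, and Nefh was lowest in SHAM6 at 775. Pvalb, a calcium buffer of proprioceptive neurons and also of fast muscle fibres, stood at 183, 444, 201, 150, 228, 123, 947, 2936 and 220 TPM in SHAM1 to SHAM9. The high libraries were SHAM8, SHAM7 and SHAM2, the same that were high in muscle genes. The transcripts differed in this, although the split of reads between transcripts of a gene is an estimate. Pvalb-202 stood at 2866 TPM in SHAM8, 876 in SHAM7, 319 in SHAM2 and 0 to 39.1 in the other 6, whereas Pvalb-201 stood at 183, 124, 194, 134, 189, 116, 70.2, 69.8 and 218 TPM in SHAM1 to SHAM9. Pvalb-201 thus had a CV of 37.8% against 151% for the gene. It was lowest in SHAM8 and SHAM7, where Pvalb-202 was highest, and the part of read assignment in this was not tested. Without SHAM2, SHAM7 and SHAM8 the gene averaged 184 TPM with a CV of 22.4%. Runx3, a transcription factor of proprioceptors, stood at 9.77 TPM with a CV of 36.7%.

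Peptidergic nociceptors, pain neurons that release peptides at their endings, were represented first by Calca (ENSMUSG00000030669), which encodes calcitonin and CGRP. Calca stood at 2494, 2019, 2046, 2479, 2194, 2293, 2562, 1977 and 2007 TPM in SHAM1 to SHAM9, a mean of 2230 ± 234 (SD, n = 9). No library stood apart. Tac1, the precursor of substance P, stood at 420 TPM, from 300 in SHAM8 to 501 in SHAM1. Trpv1, the heat and capsaicin channel, stood at 61.8 TPM with a range of 49.9 to 73.0. The list of 14 genes had a median TPM of 106 and a median CV of 12.2%.

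Genes of non-peptidergic and itch neurons had a median TPM of 58.1 over 16 genes with a median CV of 11.3%. Cd55, a complement regulator on these neurons, was highest at 367 TPM. Ret, the signalling receptor of the GDNF family, stood at 345 TPM, P2rx3, an ATP-gated channel, at 200 TPM with a CV of 6.49%, and Mrgprd, a receptor of skin-innervating nociceptors, at 80.0 TPM with a range of 68.7 to 87.6. The itch receptor Mrgpra3 stood at 17.6 TPM, and the itch peptides Nppb and Sst at 27.0 and 36.5 TPM. Over 9 genes of cold-sensing neurons and of C-fibres for gentle touch, Piezo2, the mechanically gated channel of touch, stood at 120 TPM with a CV of 7.95%, Th, tyrosine hydroxylase, at 103 TPM with a CV of 17.1%, and Trpm8, the cold and menthol channel, at 22.8 TPM, from 13.7 in SHAM6 to 29.5.

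Of the 14 voltage-gated sodium channel genes, the alpha subunits stood in the order Scn10a (Nav1.8) at 338 TPM, Scn11a (Nav1.9) at 170, Scn7a, an atypical channel of glia and some neurons, at 140, and Scn9a (Nav1.7) at 102. Scn10a ranged from 278 in SHAM6 to 396 in SHAM7, Scn11a from 159 to 195 and Scn9a from 81.6 to 109, so the ranges of these 3 did not overlap. Scn8a and Scn1a, channels of large fibres, stood at 55.9 and 39.96 TPM. Scn4a, the channel of skeletal muscle, stood at 31.6 TPM in SHAM8 and averaged 3.31 without it. Scn3a, a channel of embryonic neurons, stood at 1.43 TPM. Of 22 genes of TRP, Piezo, acid-sensing and P2X channels, 20 reached 1 TPM, and after P2rx3 and Piezo2 the highest was Asic3, an acid sensor of muscle and joint afferents, at 113 TPM. Trpa1, the irritant channel, stood at 25.2 TPM, while Trpv3, known from skin, stood at 0.182 TPM.

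Of 22 neuropeptide genes, 17 reached a mean TPM of 1. After Calca and Tac1 the highest were Nmb, the itch-related neuromedin B, at 292 TPM and Scg2, a granin, at 254 TPM. Galanin (Gal) and Npy, peptides that are low in intact ganglia and known to rise after nerve injury, stood at 36.4 and 18.4 TPM. Npy was 50.3 TPM in SHAM8 and 10.3 to 19.5 in the other 8. Vip, another peptide known to rise after injury, stood at 0.0161 TPM, Grp at 0.169 and Pdyn at 0.262.

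Receptors of neurotrophic factors stood high and their ligands low. Ngfr, the low-affinity neurotrophin receptor of neurons and satellite glia, stood at 383 TPM, ahead of Ret. Gfra2 and Gfra1, co-receptors of neurturin and GDNF, stood at 102 and 101 TPM, and Ntrk2 and Ntrk3, receptors of BDNF and neurotrophin 3, at 63.8 and 47.2. Of the ligands, Bdnf stood at 10.4 TPM, Artn at 0.232 and Gdnf at 0.132. The vesicular glutamate transporters Slc17a7 and Slc17a6, which mark excitatory transmission, stood at 172 and 112 TPM. The genes of GABA, glycine and acetylcholine transmission Gad2, Slc32a1, Slc6a5, Slc18a3 and Chat stood between 0.0217 and 0.0515 TPM.

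Hox genes, which record position along the body axis, peaked at paralog group 9. Summed mean TPM was 25.5 in group 1, of which Hoxd1 gave 24.7, then 5.72 in group 2, 14.6 in group 3, 18.6 in group 4, 34.5 in group 5, 42.9 in group 6, 66.6 in group 7, 45 in group 8, 125 in group 9 and 45.3 in group 10. The groups of the most caudal segments followed at 0.393 in group 11, 0.0528 in group 12 and 0.00450 in group 13. The drop lay between groups 10 and 11. Hoxa9 was the highest single gene at 88.6 TPM ± 8.78 (SD, n = 9), from 75.8 to 101, followed by Hoxa7 at 54.3 and Hoxa10 at 28.2. The 5 genes Hoxa13, Hoxb1, Hoxb13, Hoxd12 and Hoxd13 were listed at 0 in all libraries, and the Hox level varied little between libraries, with an SD of 0.08 on the log2(TPM + 1) scale.

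Satellite glia genes had a median CV of 17.2%, whereas genes of myelin were among the most variable of the abundant genes. After Apoe and Ngfr, the satellite glia list was led by Fabp7, a fatty acid carrier, at 278 TPM and Glul, glutamine synthetase, at 245 TPM. The list held 0.667% ± 0.0578 of all TPM (SD, n = 9). Pmp22 (ENSMUSG00000018217), a myelin membrane protein, stood at 2133, 2381, 2885, 3909, 2250, 4308, 2825, 957 and 2169 TPM. Mbp, which compacts myelin, stood at 1657, 2282, 2592, 3575, 1982, 4310, 2312, 701 and 1939 TPM. Both were highest in SHAM6, then SHAM4, and lowest in SHAM8. Of 15 myelinating Schwann cell genes, 12 were highest in SHAM6 and 14 were lowest in SHAM8. Their median CV was 42.0%, and 24.7% with SHAM6 and SHAM8 left out after seeing the data. Many other genes had the same extremes. Of the 250 genes with the highest CV at 10 TPM or more, 130 were highest in SHAM6 and 100 were lowest in SHAM8. Over all 9247 genes at that level, the median log2 departure from the gene's median was -0.17 in SHAM8 and -0.05 in SHAM6. The shares of all genes with these extremes are not given here. Mobp, a myelin protein of the central nervous system, stood at 20.3 TPM in SHAM2 against a mean of 6.14. Of the genes listed for non-myelinating Schwann cells, Apod, a lipid carrier, stood at 1992 TPM, from 835 in SHAM8 to 3257 in SHAM6. Its CV was 36.7%, against a median of 12.2% for the list. S100b, a calcium-binding protein, stood at 737 TPM.

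Connective tissue genes moved in the same libraries as myelin. Of 16 genes, 14 were highest in SHAM6 and 14 were lowest in SHAM8. Among the 250 genes with the highest CV these counts were 130 and 100. Decorin (Dcn), a proteoglycan of the sheath, stood at 562 TPM, from 248 in SHAM8 to 948 in SHAM6, and Mgp, an inhibitor of calcification, ranged from 24.0 to 537 TPM. Ogn and Col1a2, of the collagen matrix, stood at 182 and 114 TPM. The mean of log2(TPM + 1) over the list ran from 3.84 in SHAM8 to 6.12 in SHAM6. Whether the amount of nerve root and capsule taken with the ganglia differed was not tested.

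Vessel genes were low. Ly6c1, a surface protein of endothelium, was the only one of 30 to reach 100 TPM on average. The endothelial junction proteins Cldn5 and Pecam1 stood at 19.5 and 13.8 TPM, and Mfsd2a, a lipid transporter of barrier vessels, at 25.3 TPM. Vwf, a clotting factor of larger vessels, ranged from 5.22 in SHAM8 to 32.4 in SHAM6. Of pericyte and smooth muscle genes, Rgs5 was highest at 85.4 TPM. Des, shared with skeletal muscle, stood at 212 TPM in SHAM8 and averaged 2.36 without SHAM2, SHAM7 and SHAM8.

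Macrophage genes were measured at low levels, with a median of 5.26 TPM, and lymphocyte genes had lower medians. Lyz2, lysozyme of myeloid cells, led the macrophage list at 75.8 TPM, from 41.4 in SHAM1 to 174 in SHAM6, followed by the complement components C1qa and C1qb at 29.9 and 29.5 TPM. The invariant chain Cd74 stood at 161 TPM, from 77.7 in SHAM8 to 254 in SHAM6, and B2m, the light chain of MHC class I, at 707 TPM. T and NK cell genes had a median of 0.29 TPM. Their highest, the kinase Lck, stood at 1.91 TPM, Cd3e at 0.297 and Cd8a at 0.0873. The 16 B and plasma cell genes had a median of 1.30 TPM, but 4 of them reached 10 TPM and the highest 73.1 TPM. The B cell antigen Ms4a1 stood at 0.833 TPM, and the immunoglobulin chain Igkc averaged 40.7 TPM. Among 10 mast cell genes Kit, which neurons also express, was highest at 33.0 TPM, and the proteases Mcpt4 and Tpsb2 stood at 7.96 and 7.51.

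Neutrophil and red blood cell genes differed widely between libraries, with a median CV of 85.2% and 91.6%. S100a9, a calcium-binding protein of neutrophils, stood at 40.4, 38.3, 96.6, 112, 211, 486, 189, 100 and 61.4 TPM in SHAM1 to SHAM9. All 13 neutrophil genes at 1 TPM or more were highest in SHAM6, beside 130 of the 250 genes with the highest CV. Hbb-bs (ENSMUSG00000052305), a beta globin, stood at 558, 439, 1301, 2095, 1843, 5480, 812, 654 and 915 TPM. The other adult globins Hba-a2, Hba-a1 and Hbb-bt averaged 1437, 1058 and 247 TPM. Of the stretches of 31 bases of Hba-a1, 71.3% are present in Hba-a2, and of those of Hbb-bs, 66.9% in Hbb-bt. The split within each pair is therefore uncertain. SHAM6 had the most globin as well as the most neutrophil transcript, and without it Hbb-bs averaged 1077 TPM with a CV of 56.9%. Platelet genes were low, with Pf4, a platelet chemokine, at 10.9 TPM. The animals' perfusion before dissection is not given in the sources used here, and the part of retained blood in the immune levels was not tested.

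Immunoglobulin chains set SHAM5 and SHAM9 apart. The kappa constant region Igkc stood at 106 TPM in SHAM5 and 99.99 in SHAM9, against 11.3 to 40.03 in the other 7. Ighg2b, the constant region of IgG2b, held 317 reads in each of SHAM5 and SHAM9, or 30.5 and 33.3 TPM, against 0.187 to 5.67 TPM in the others. A pair of variable regions, named after their values were seen, were high in the same libraries. Ighv1-54 stood at 47.4 and 57.8 TPM in SHAM5 and SHAM9 and at most 6.12 in the others, and Igkv10-96 at 59.9 and 93.4 TPM and at most 8.80 in the others. The third highest library was SHAM1 in both. 5TGM1 cells are known to secrete an antibody of the IgG2b kappa class, and these mice are labelled as given vehicle only. Where these reads come from was not tested. Ighm, the constant region of IgM, did not follow this order and was highest in SHAM8 at 121 TPM. This is a sum over transcripts, of which Ighm-201 held 24.8% in SHAM8, its lowest share, and 86.3% in SHAM9, its highest.

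Transcripts of skeletal muscle had the highest CVs of all lists, with a median of 221%. Acta1 (ENSMUSG00000031972), the actin of skeletal muscle fibres, stood at 1.56, 482, 3.24, 12.8, 49.6, 4.71, 1489, 6800 and 2.25 TPM in SHAM1 to SHAM9. SHAM8, SHAM7 and SHAM2 were high, SHAM5 was intermediate and the other 5 were low. The same order SHAM8, SHAM7, SHAM2, SHAM5 was seen for Myl1 (a myosin light chain) at 5107, 1240, 317 and 27.5 TPM, for Ckm (muscle creatine kinase) at 3428, 850, 260.0 and 24.6 TPM, and for Tnnt3 (a troponin of fast fibres) at 4782, 1207, 386 and 37.9 TPM. Of 16 muscle genes, 15 were highest in SHAM8, beside 73 of the 250 genes with the highest CV. The exception, Myh2, a myosin of another fibre type, was highest in SHAM2. Without Pvalb, which neurons also express and which was left out after seeing the data, the list held 3.43% of all TPM in SHAM8 and 0.00167% in SHAM1, the lowest library. Its median TPM with Pvalb was 350, and 5.88 without SHAM2, SHAM7 and SHAM8. The promoter of Acta1 is shown with motifs known from muscle genes, of which not all muscle genes here held a match. The 250 bases before its start, GRCm38.p6 chr8:123894776-123895025, minus strand, from RefSeq, hold 1 CArG box, the sequence bound by serum response factor, and 1 CAGCTG, an E-box of the kind bound by the MyoD family, both in capitals:
Acta1 promoter: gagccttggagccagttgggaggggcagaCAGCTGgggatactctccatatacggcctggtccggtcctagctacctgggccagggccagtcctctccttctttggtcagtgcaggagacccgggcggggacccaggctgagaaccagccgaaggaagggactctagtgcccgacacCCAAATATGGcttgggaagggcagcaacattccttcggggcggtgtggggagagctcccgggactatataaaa
CAGCTG, searched on both strands, was in this window in 8 of the 13 muscle genes found in the promoter table, beside 14.7% of 27025 genes, and a CArG box in 2 of 13, beside 1.62%. The 2 motifs do not overlap in the Acta1 window. A match describes the letters only.

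Some genes of other tissues near the ganglion stood out in 1 library. Of 8 adipocyte genes at 1 TPM or more, 7 were highest in SHAM8, beside 73 of the 250 genes with the highest CV. The summed TPM of the adipocyte list was 233 in SHAM8 and 18.5 to 51.1 in the others. Cfd, an adipocyte protease, stood at 114 TPM in SHAM8 against a mean of 22.1. Lep and Ucp1, defining genes of white and brown fat, averaged 0.0450 and 0.0686 TPM over the 9 libraries. Bglap, osteocalcin of bone, stood at 20.9 TPM in SHAM7 on 69 reads over all libraries. Gfap, an intermediate filament of astrocytes and of some Schwann cells and satellite glia, stood at 21.4 TPM in SHAM2 and 0.575 to 3.56 in the others, with 573 reads in SHAM2. Mog, of central myelin, held 22 reads in all, of which 11 were in SHAM2. Opalin averaged 0.0161 TPM, and Olig1 0.299. Ptgds (ENSMUSG00000015090), a prostaglandin synthase abundant in the meninges, stood at 464, 1090, 789, 1291, 707, 6802, 436, 70.0 and 226 TPM in SHAM1 to SHAM9. Prg4, lubricin, stood at 110 TPM in SHAM6 and 1.16 to 12.4 in the others. In SHAM6 these values moved with the connective tissue, myelin and blood genes above. Without SHAM6, Ptgds averaged 634 TPM with a CV of 65.9%. Ttr, of choroid plexus, stood at 0.899 TPM.

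**Figure D3:**
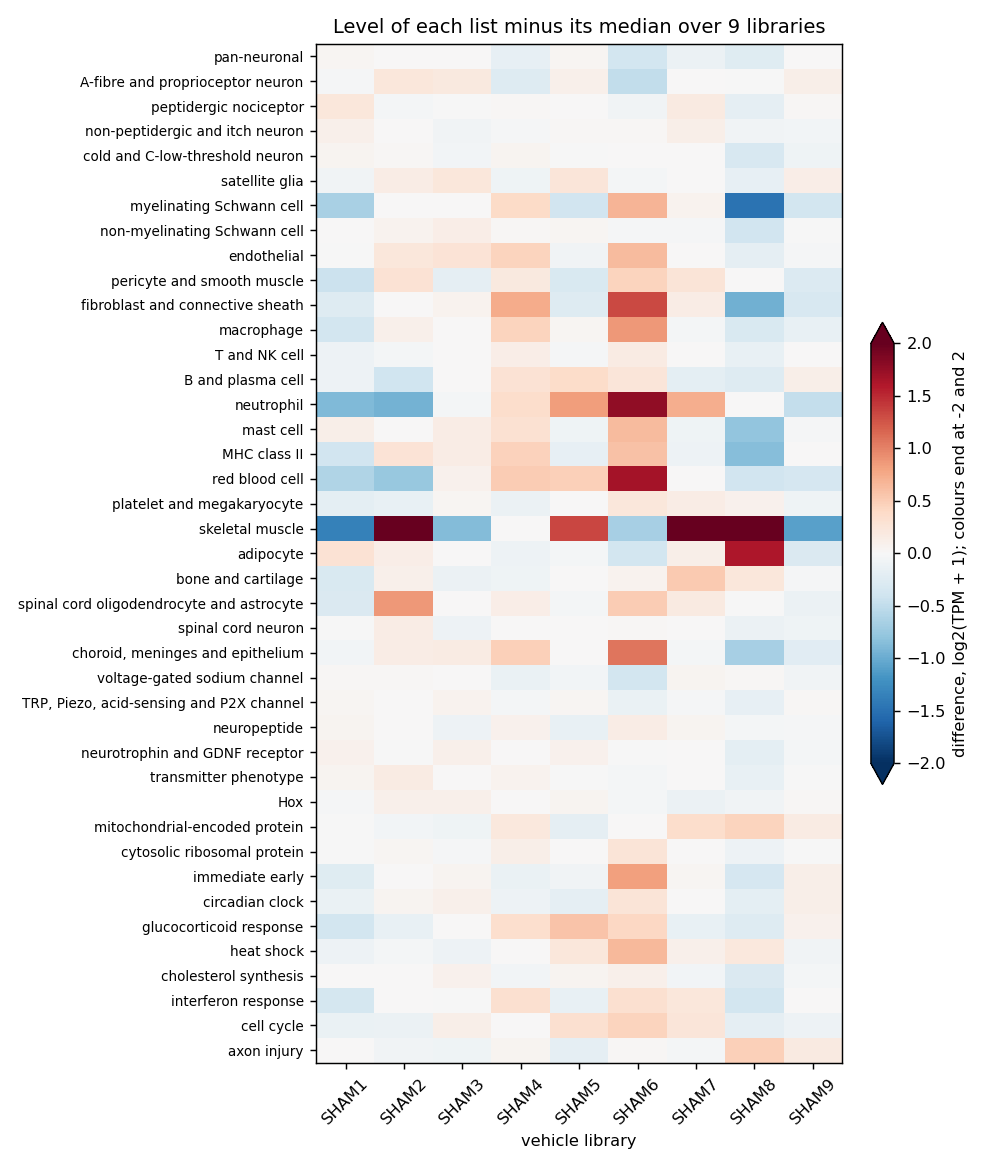
Each row is a gene list and each column a vehicle library; colour is the mean of log2(TPM + 1) over the list minus the median of that value over the 9 libraries, with colours ending at -2 and 2. Neuron rows are pale except for A-fibre genes in SHAM6, the muscle row is saturated in SHAM2, SHAM7 and SHAM8, and SHAM6 is high for connective tissue, myelinating Schwann cell, neutrophil, red blood cell, meninges and immediate early genes.

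Immediate early genes, which respond within minutes to stimuli, were mostly highest in SHAM6, in 14 of 17 cases. Of the 250 genes with the highest CV, 130 were highest there. Egr1, a transcription factor induced by activity, stood at 41.6 TPM in SHAM6 and 5.01 to 17.7 in the others, and Fos at 17.7 TPM against 2.70 to 5.18. Of the stretches of 31 bases of the inducible chaperone Hspa1a, 63.8% are present in Hspa1b, also an inducible chaperone. Hspa1a and Hspa1b stood at 66.7 and 98.1 TPM in SHAM6, beside means of 16.1 and 23.2. Of the 12 heat shock genes, however, 5 were highest and 2 lowest in SHAM6. The constitutive chaperone Hsp90ab1 stood at 1944 TPM with a CV of 4.56%. The metallothionein Mt2, a glucocorticoid-responsive gene, stood at 1299 TPM in SHAM4 and 900 in SHAM5, beside a mean of 525. The mean of log2(TPM + 1) over 28 cytosolic ribosomal protein genes was 8.60 in SHAM6 and 8.24 to 8.46 in the others. Over 15 genes of cholesterol synthesis it was 6.52 in SHAM8 and 6.75 to 6.91 in the others. Hmgcs1, an early enzyme of that synthesis, stood at 360 TPM in SHAM8 beside a mean of 443. Over all 9247 genes at a mean TPM of at least 10, the median log2 departure from the gene's median was -0.17 in SHAM8, so genes were slightly low there in general, and -0.05 to 0.05 in the others.

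Genes known to rise in axotomised sensory neurons were mostly at low to moderate levels; the labels record an injection into the femur and no nerve injury. Gap43, of growing axons, stood at 219 TPM with a CV of 8.70%. Atf3, a transcription factor of injured neurons, stood at 14.9 TPM, with 24.3 in SHAM8, 18.8 in SHAM6 and 11.9 to 14.3 in the other 7. Sprr1a, also a gene of injured neurons, stood at 108 TPM in SHAM8, 58.9 in SHAM9 and 24.4 to 40.6 in the others. Ecel1, a peptidase of injured neurons, was highest in SHAM9 at 9.89 TPM. Of the 13 genes of this list at 1 TPM or more, 7 were highest in SHAM8, beside 73 of the 250 genes with the highest CV. SHAM8 was also highest for Npy and for muscle, and the part of muscle or handling in these values was not tested. Of interferon-responsive genes, Ifi27 was highest at 205 TPM, and Mx1, an antiviral GTPase, stood at 1.04 TPM. Of clock genes, Cry1, a repressor, stood at 7.64 TPM with a CV of 5.06%, and Hlf, an output factor, at 7.25 TPM with 22.8 in SHAM6. Mki67, of dividing cells, stood at 1.0 TPM.

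**Figure D4:**
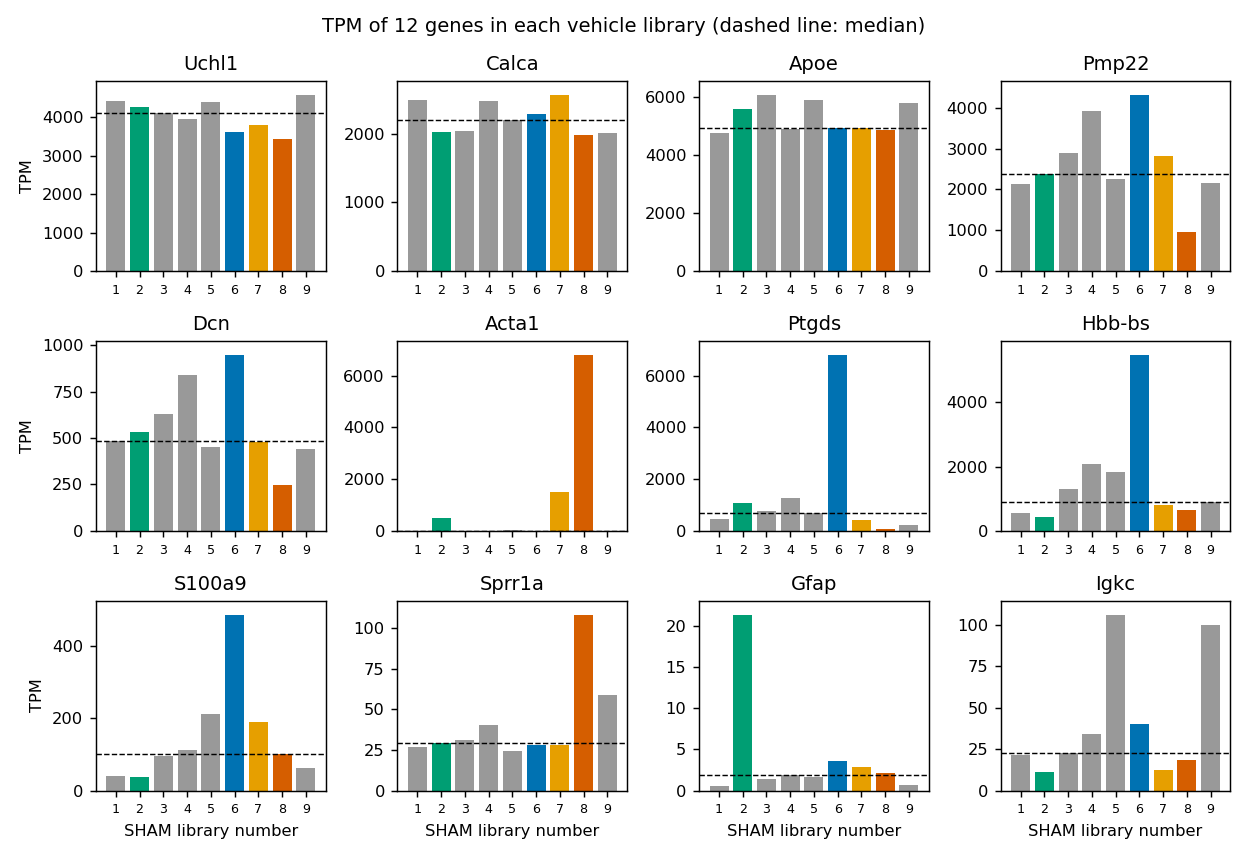
TPM of 12 genes in the vehicle libraries 1 to 9, as bars from 0 with the median as a dashed line; SHAM2 is green, SHAM6 blue, SHAM7 orange, SHAM8 red-orange and the others grey. Uchl1, Calca and Apoe are nearly level, whereas Acta1, Ptgds, Hbb-bs, S100a9, Sprr1a and Gfap each rise far above the median in 1 to 3 libraries, and Igkc does so in SHAM5 and SHAM9.

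Spread between libraries fell with abundance. The median CV was 13.4% at a mean TPM of at least 1, 10.2% at 10 and 8.45% at 100, and 4428 of the 9247 genes at 10 TPM (47.9%) had a CV under 10%. The common biological coefficient of variation from edgeR, the spread left after counting error over 14556 genes, was 0.184. It was 0.118 without SHAM6 and SHAM8, a choice made after seeing the data. These libraries stood furthest from the others, so a lower spread without them follows from that choice. The genes with the lowest CV of TPM were Psma4, a proteasome subunit, at 125 TPM with a CV of 1.92% and a range of 122 to 130, and Ndufv1, of complex I, at 148 TPM with 1.97%. Then came Fez2, Slbp, Adipor1, Eif3m, Srp68, Acadvl, Psma6, Edf1, Bop1, Eno1, Map2k2, Flot1 and 1810058I24Rik, with 2.85% for the last and 2.86% for Sqstm1, the next outside. For Psma4 counting alone gives 2.79%, and 9 of these 15 genes had a CV under their counting error, so their order is within that error. Others were above it, such as Eno1 with 2.76% against 0.950%.

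The order at the stable end depended on the scale. Psma4 had a CV of 6.38% in TMM-scaled CPM and 6.12% in the deposited normalized table, and only 1 and 4 of the 100 most stable genes by TPM were among the 100 most stable on those 2 scales. On all 3 scales together, 165 of 9235 genes had a CV under 5% and 4077 under 10%. By the highest of the 3 CVs, a choice made after seeing the data, the steadiest gene was Ctsd, the lysosomal protease cathepsin D, at 708 TPM with a highest CV of 3.65% and a range of 682 to 741. Golph3l, Eif3m, a translation initiation factor, and Lonp1, a mitochondrial protease, followed. Genes often used as references ranged widely. The CV was 7.62% for Ppia, 8.48% for Hprt, 9.26% for Actb, 12.9% for Tbp, 14.3% for Gapdh and 28.8% for B2m. The CV of Gapdh was higher than that of 75.4% of all genes at 10 TPM or more, and of B2m than 94.5%.

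At the variable end, the 20 genes with the highest CV at 10 TPM or more were all highest in SHAM8, and nearly all are known as genes of skeletal muscle. They ran from Mylk2, a myosin light chain kinase, at 238%, through Myh4, Igfn1, Neb, Mybpc2, Acta1, Ampd1, Myom2, Myl1, Pdlim3, Ckm, Atp2a1, Actn3, Tnnt3, Mylpf, Tnni2, Tnnc2, Cox8b and Myoz1 to Pygm, muscle glycogen phosphorylase, at 217%. Among the first 100 genes, 55 were highest in SHAM8 and 28 in SHAM6, and S100a8 was the last inside at 85.8%. A CV over 50% was found for 191 genes and over 100% for 76. With SHAM6 and SHAM8 left out after seeing the data, these counts were 106 and 46. Without SHAM2, SHAM7 and SHAM8, a choice made after seeing the data, the highest CVs included Prg4 at 166%, Acta1 at 151% on a mean of 12.3 TPM, Ptgds at 147%, Hspa1b at 143% and Igkv10-96 at 143%.

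**Figure D5:**
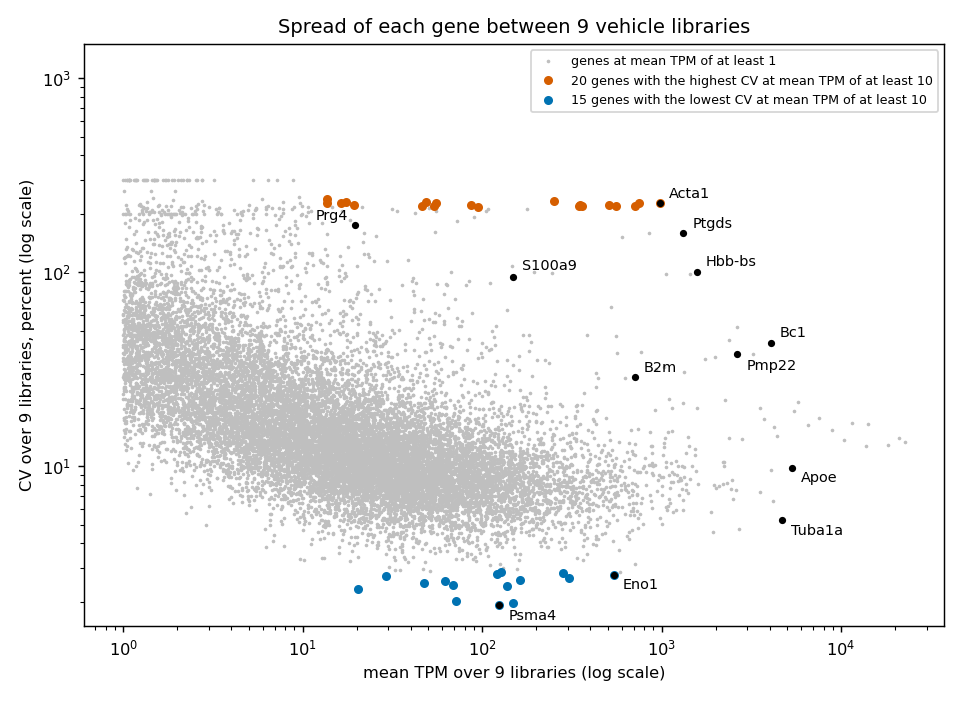
CV over the 9 vehicle libraries against mean TPM, both on log scales, for genes at a mean TPM of at least 1; the 20 genes with the highest and the 15 with the lowest CV at 10 TPM or more are coloured and a few genes are named in black. The cloud narrows and falls to the right, the muscle genes form a band at a CV above 200%, and Ptgds, Hbb-bs, Pmp22 and Bc1 lie far above other genes of their abundance.

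Most genes kept their leading transcript in every library. Of the 9247 genes, 8467 had more than 1 transcript, the most abundant transcript held a median of 74.5% ± 0.59 of a gene's TPM (SD, n = 9), and it was the same in all 9 libraries for 6960 genes (82.2%). Calca-201 held 80.8% ± 0.77 of Calca (SD, n = 9), and Calca-206 held 19%; the gene is known to be spliced to calcitonin or CGRP messages. Trpv1-202 held 99.3% of Trpv1, Snap25-201 99.1% of Snap25 and P2rx3-201 98.6% of P2rx3, while Ret-202 held 64.4% of Ret and Uchl1-202 51.3% of Uchl1. Tpm1, a tropomyosin chosen after its values were seen, was split by transcript as Pvalb was. Tpm1-205 stood at 3957 TPM in SHAM8, 938 in SHAM7, 286 in SHAM2 and 4.49 to 29.5 in the other 6, whereas Tpm1-209 stood at 171 to 218 TPM in all 9, with a CV of 7.38%. Tpm1-205 held 90.4% of the gene in SHAM8 and 1.83% in SHAM9.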

How the data were processed

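Whole lumbar dorsal root ganglia of 9 vehicle mice gave 1 library each, and the series text gives 9 mice per group. Per the submitters' processing notes, Salmon 1.5.2, DESeq2 and the GRCm39 build were used; index and options are not given in the sources used here. The deposited quantification holds, per transcript, estimated counts that the authors left unscaled. The deposited TPM values were scaled within each library by the authors' run of Salmon. A further deposited table gives a signal per gene that the authors normalized across libraries; its 9 columns of the other group were not used.

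TPM and estimated counts were summed per gene by transcript number through GENCODE M21, which annotates the older GRCm38, so it served for names and sequences only. Of 137562 transcripts, 3620 had no gene there and were left out; they held 0.988 to 1.295% of reads. Promoters came from RefSeq, GRCm38.p6. Lists of genes and the libraries described were chosen with earlier results of these data known. A list's level is the mean of log2(TPM + 1) over its members. No group was compared and no gene was tested: errors are SDs over libraries. Dixon's limit for an extreme library served only to flag values for a closer look.

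Named genes are the 25 nuclear genes highest in TPM and mitochondrial-encoded ones; the 15 lowest and 20 highest in CV at a mean TPM of at least 10; the 5 highest non-coding genes; per list up to 4 highest members, the one with the highest CV and defining markers near 0; small families; and Samsn1. Ctsd, Golph3l, Lonp1, Tpm1, Ighv1-54, Igkv10-96 and some further list members were named after their values were seen.

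Counts were rounded, filtered by filterByExpr and scaled by TMM in edgeR 4.0.16 (R 4.3.3) for the biological coefficient of variation, with DESeq2 1.42.0 size factors as an alternative; the script was tested on simulated data. Other steps used Python 3.11.15, numpy 2.4.6 and pandas 2.3.3. Alternatives were other scales, filters and pseudocounts and left-out libraries. Leaving out SHAM6 and SHAM8, or SHAM2, SHAM7 and SHAM8, was chosen after seeing the data. Some genes that the rule names are not reported here.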

Additional observations from a re-analysis of the deposited data

Results flagged for a closer look

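For 51 values (list and class levels, shares and library similarity), the gap of the most extreme library to its nearest neighbour was divided by the range of all 9; chance puts about 1 in 20 such values past Dixon's 95% limit, and 10 were past it. All 10 concern SHAM6 or SHAM8, and lists that share a library are not separate observations. No cause was tested.

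SHAM8 was lowest for genes of cold and C-low-threshold neurons, where the mean of log2(TPM + 1) was 4.75 against 4.97 to 5.12 in the others (ratio 0.598), for non-myelinating Schwann cells at 6.20 against 6.57 to 6.73 (0.686), for mast cells at 0.97 against 1.67 to 2.39 (0.494) and for cholesterol synthesis at 6.52 against 6.75 to 6.91 (0.587). SHAM8 was highest for adipocyte genes at 2.95 against 0.96 to 1.63 (0.665). Its median correlation with the other libraries was lowest, 0.942 against 0.962 to 0.977 (0.579).

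SHAM6 was highest for immediate early genes at 4.49 against 3.34 to 3.79 (0.607), for heat shock genes at 8.17 against 7.42 to 7.74 (0.574) and for blood genes as a class at 4.41 against 2.96 to 3.68 (0.504). By summed TPM the heat shock list was not highest in SHAM6, at 8267 against 9301 in SHAM5, and 5 of its 12 members were highest in SHAM6. SHAM6 was lowest for sodium channel genes at 5.04 against 5.28 to 5.46 (0.572).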

How the results depend on the processing

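No paired analysis was possible because only 1 group was described. Without mitochondrial-encoded genes the share of the first 10 genes was 10.3% and of the first 100 25.9%, and the neuron level was 6.96. The median CV was 10.4% in TMM-scaled CPM, 12% in the deposited table, 10.2% at a mean TPM of at least 10, 37.7% with no filter above 0 and 11.1% without SHAM6 and SHAM8. Of the 100 most stable genes, 1 was shared with the TMM scale, 4 with the deposited table, 30 without SHAM7 and SHAM8, 52 without SHAM5 and SHAM9, 31 to 80 without 1 library each (31 without SHAM8, 66 without SHAM5 or SHAM6), and, in choices made after seeing the data, 23 without SHAM6 and SHAM8 and 22 without SHAM2, SHAM7 and SHAM8. The common biological coefficient of variation was 0.253 with no filter except genes at 0 counts and 0.118 without SHAM6 and SHAM8. By the median over members, the levels of neuron, glia and immune genes were 6.43, 6.13 and 1.79; the immune level was 1.66 with a pseudocount of 0.1 and 3.35 over members at a mean TPM of at least 1. The median correlation of SHAM8 was 0.910 with log2(TPM + 0.1) and 0.916 at a mean TPM of at least 10, and the share of the top transcript was 86.5% from estimated counts. The median CV was 12.4 to 13.7% and the biological coefficient of variation 0.154 to 0.197 without 1 library each. The causes were not tested beyond what each alternative removes; genes with few reads are limited by counting error.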
